A study of Pan troglodytes with 217 samples.

Results

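Oxidative phosphorylation is carried out by 5 protein complexes of the mitochondrial inner membrane. Complexes I to IV pass electrons to oxygen and, with the exception of complex II, pump protons, and complex V uses the proton gradient to make ATP. Most subunits are encoded in the nucleus, whereas a small set of core subunits of complexes I, III, IV and V is encoded in the mitochondrial genome. Preimplantation embryos and naive pluripotent cells are known to respire actively, and trophectoderm is known for its need of ATP to pump sodium during cavitation.

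The genes described here are the subunit genes of these complexes in cells of chimpanzee blastoids. Members were taken by symbol, as genes starting with NDUFA (without the NDUFAF assembly factors), NDUFB, NDUFC, NDUFS, NDUFV, UQCR, ATP5, COX4 to COX8, MT-ND, MT-CO, MT-CYB or MT-ATP, together with SDHA, SDHB, SDHC, SDHD and CYC1. This rule found 88 nuclear and 13 mitochondrial symbols among the 33729 gene identifiers of the count table, and 11 of the nuclear symbols belonged to 2 identifiers each. By complex, 39 nuclear members belonged to complex I, 4 to complex II, 10 to complex III, 17 to complex IV and 18 to complex V. NDUFA4, which is now regarded as a subunit of complex IV, stays with complex I here because of its name. Together, nuclear and mitochondrial members took 6.0% of all reads counted on genes.

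Blastoids are blastocyst-like structures formed from naive pluripotent stem cells. Naive chimpanzee induced pluripotent stem cells were clustered in N2B27 medium with PD, A83-01, LPA and Y-27632, moved to medium without PD and then to N2B27 alone, and the blastoids were dissociated on day 4. Most of the mural trophectoderm was cut away and dissociated apart from the inner cells and polar trophectoderm, for a longer time, and the transcripts of each cell were read along their length by SMART-seq2, which adds no molecular identifiers. The labels name no line, blastoid, plate or dissection fraction for a cell, so all cells are 1 sample of 1 condition, no difference between cell classes could be tested over replicates, and effects of these sources cannot be told apart from class.

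Cells with at least 8000 detected genes were kept, which was 88.9% of the cells, and 24 were left out. The cells kept carried 1679888 to 25630392 reads, with a median of 3960857. Clustering without the oxidative phosphorylation genes gave 50 epiblast-like cells, 32 hypoblast-like cells and trophectoderm-like cells in a cluster of 71 that was low in CCR7 and a cluster of 40 that was high in CCR7, a gene of the later trophectoderm state here. Of the marker lists, 10 of 11 epiblast genes reached 10 reads per 1000000 reads on all genes (CPM) in epiblast-like cells, 9 of 10 hypoblast genes in hypoblast-like cells and 10 of 11 trophectoderm genes in trophectoderm-like cells. The clusters were named by these lists, so these counts do not test the names. The epiblast list also had 5 genes at that level in hypoblast-like and 2 in trophectoderm-like cells. The hypoblast list had 2 in epiblast-like and 1 in trophectoderm-like cells. The trophectoderm list had 6 in epiblast-like and 3 in hypoblast-like cells. Median depth was close among the classes, at 3951119, 3978823 and 3960857 reads, while the median number of detected genes was 11737, 10994 and 10986.

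Levels of nuclear genes are reads per 1000000 reads on nuclear genes (RPM), pooled over the cells of a class. Mitochondrial genes are given as a share of all reads on genes. Intervals are exact 95% Poisson or Clopper-Pearson intervals and cover counting error only, since amplified copies of the same molecule enter the counts separately. The spread over cells is given beside them. Levels are not corrected for transcript length and are compared between classes only within a gene or a fixed set of genes.

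Summed over the 88 nuclear members, the level was highest in epiblast-like cells and lowest in CCR7-high trophectoderm-like cells. The pooled sum was 37951 RPM in epiblast-like cells (95% interval 37925 to 37977), or 3.80% of their nuclear reads. It was 35517 in hypoblast-like cells (35484 to 35550) and 30266 in trophectoderm-like cells (30251 to 30281). Single cells spread widely within each class. Among epiblast-like cells the sum ran from 22992 to 45644 with a median of 37975. Among hypoblast-like cells it ran from 21537 to 49216 with a median of 34938, and among trophectoderm-like cells from 13636 to 45002 with a median of 30375. The ranges of all classes overlapped. Nevertheless, 46 of 50 epiblast-like cells and 26 of 32 hypoblast-like cells lay above the trophectoderm-like median, and 40 of 50 epiblast-like cells lay above the hypoblast-like median. For epiblast-like over trophectoderm-like cells the log2 fold of the sum was 0.33, against a median of 0.06 over all nuclear genes compared below. For hypoblast-like over trophectoderm-like cells it was 0.23 against -0.01. Between epiblast-like and hypoblast-like cells it was 0.10 against 0.09, near that of all genes.

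The trophectoderm-like cells divided in the same measure. CCR7-low cells had a pooled sum of 32106 (median cell 31693) and CCR7-high cells 27404 (median cell 28498), a ratio of 0.854. Of the 40 CCR7-high cells, 33 lay below the CCR7-low median. CCR7-high cells were the more deeply read, with a median of 4623589 reads and 11589 detected genes against 3682620 and 10766, and with each cell thinned to 2532312 reads, which leaves out shallower cells, the log2 fold of the sum was -0.19 in place of -0.23.

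**Figure D1:**
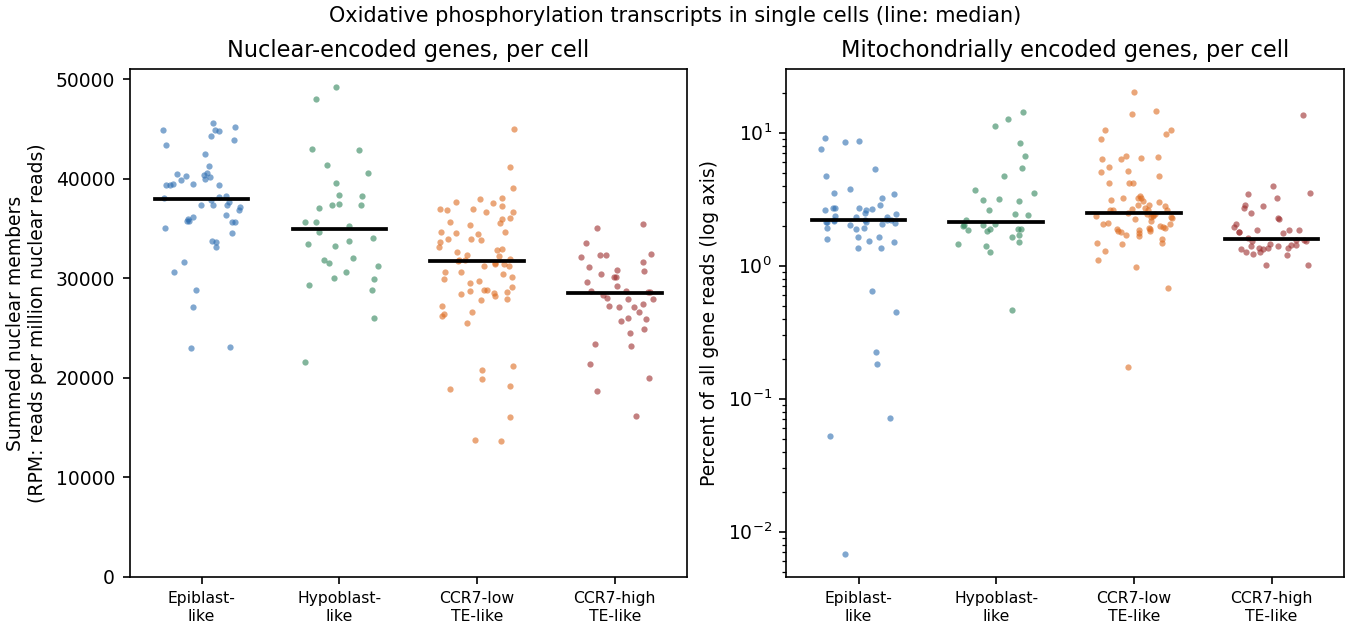
Each point is 1 cell, with the summed level of the nuclear members on the left (RPM) and the percent of all gene reads on the 13 mitochondrially encoded members on the right (log axis), and the black line is the median of the group. Nuclear medians descend from 37975 in epiblast-like to 28498 in CCR7-high trophectoderm-like (TE-like) cells with overlapping ranges, while mitochondrial medians lie between 1.59% and 2.48%.

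Differences in single genes were read against all nuclear genes. A gene entered where the mean of its 3 class levels was at least 10 RPM, which 7884 nuclear genes and 75 of the 88 nuclear members did. Genes past 1.5-fold in a comparison are called higher or lower, as a rule of size and not as a test. Comparisons of 1 class with several others share cells and are not independent of each other.

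Between epiblast-like and trophectoderm-like cells, 16 of 75 members (21.3%) were higher in epiblast-like cells, against 24.6% of all nuclear genes, and 2 (2.67%) were lower, against 16.7%. The share of higher members was near the background and fell on either side of it with the setting. It was 21.9% against 20.9% of all genes at a mean level of at least 30, and 21.4% against 18.4% at a level of at least 100, a limit added after seeing the data. The middle of the distribution lay higher than that of all genes. The median log2 fold was 0.26 for members and 0.06 for all nuclear genes, and 61 of 75 members were above a fold of 1, against 53.8% of all nuclear genes. Most members therefore differed by a small amount in 1 direction.

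Among the 75 members that entered, the 10 largest differences in favour of epiblast-like cells came from all 5 complexes. They were SDHC, SDHB, ATP5IF1, ATP5ME, UQCRH, NDUFB1, COX7A2L, NDUFV2, ATP5PD and NDUFA1, with log2 folds from 1.38 down to 0.86. The other 6 lay between 0.64 and 0.80.

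Complex II, which oxidises succinate and feeds electrons into the chain without pumping protons, stood highest of the complexes in this comparison. Its summed level was 1.83 times higher in epiblast-like than in trophectoderm-like cells, against 1.19 to 1.35 times for the other complexes. SDHB, the iron-sulfur subunit, had 309 to 1310 RPM in epiblast-like cells (median 640), 192.5 to 895 in hypoblast-like cells (median 515) and 0.525 to 544 in trophectoderm-like cells (median 244.6). All 50 epiblast-like cells and 29 of 32 hypoblast-like cells were above the trophectoderm-like median, although the ranges overlapped. The pooled folds over trophectoderm-like cells were 2.59 and 1.94.

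SDHC, a membrane anchor of complex II, had 130.8 to 695 RPM in epiblast-like cells (median 358), 38.2 to 410 in hypoblast-like cells (median 207.9) and 0.322 to 271 in trophectoderm-like cells (median 148.2). It was above the trophectoderm-like median in 47 of 50 epiblast-like cells and 22 of 32 hypoblast-like cells, with pooled folds of 2.61 and 1.57. SDHD, the other anchor, differed less. Its median cell had 658, 493 and 511 RPM in the 3 classes, and its pooled fold of epiblast-like over trophectoderm-like cells was 1.26. SDHA, the catalytic flavoprotein subunit, was counted at only 6.46, 6.55 and 6.39 RPM and did not enter. Its symbol belongs to 2 identifiers in the annotation, and the median of complex II, a log2 fold of 1.37, rests on the other 3 genes.

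In complex V, both directions occurred. ATP5IF1, an inhibitor of ATP hydrolysis by the synthase, had 45.6 to 180.7 RPM in epiblast-like cells (median 88.1), 21.2 to 141.6 in hypoblast-like cells (median 60.5) and 13.7 to 79.1 in trophectoderm-like cells (median 38.7). It was above the trophectoderm-like median in all 50 epiblast-like cells and in 29 of 32 hypoblast-like cells. ATP5ME, the subunit e at the interface of synthase dimers, was pooled at 228.7 in epiblast-like, 162.3 in hypoblast-like and 102.8 in trophectoderm-like cells. ATP5PD, part of the peripheral stalk, had a log2 fold of 0.86 for epiblast-like over trophectoderm-like cells.

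The 2 members that were lower in epiblast-like than in trophectoderm-like cells also belonged to complex V. ATP5F1E, the epsilon subunit of the central stalk, had 107.6 to 737 RPM in epiblast-like cells (median 313), 298 to 1091 in hypoblast-like cells (median 538) and 134.9 to 910 in trophectoderm-like cells (median 581). In 48 of 50 epiblast-like cells it was below the trophectoderm-like median, and the pooled log2 fold was -0.74. ATP5PB, the subunit b of the peripheral stalk, had a log2 fold of -0.62 and was below that median in 49 of 50 epiblast-like cells. The catalytic subunits ATP5F1A and ATP5F1B, named here after their values were seen, were at 0.21 and 0.31.

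In complex III, UQCRH, the hinge protein that contacts cytochrome c1, had 264.03 to 1856 RPM in epiblast-like cells (median 942), 309 to 1617 in hypoblast-like cells (median 719) and 120 to 765 in trophectoderm-like cells (median 421). It was above the trophectoderm-like median in 49 of 50 epiblast-like cells. UQCRHL, a near copy of UQCRH named here after its values were seen, was counted at 1.34 RPM or less, and how reads were divided between them was not tested. CYC1, cytochrome c1 itself, was pooled at 270, 293 and 277 in the 3 classes. UQCRC2, a core protein, was the lowest of the 8 members of complex III that entered, with a log2 fold of -0.17.

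In complex IV, COX7A2L, which takes part in joining complexes III and IV into supercomplexes, had 46.9 to 809 RPM in epiblast-like cells (median 447), 133.2 to 679 in hypoblast-like cells (median 426) and 19.7 to 460 in trophectoderm-like cells (median 208.3). The levels of epiblast-like and hypoblast-like cells were close, at a pooled ratio of 1.06, and 48 of 50 and 28 of 32 cells were above the trophectoderm-like median. COX4I1, a subunit present in nearly all tissues, was at 1007, 973 and 977. COX5A was the lowest of the 12 members of complex IV that entered, with a log2 fold of -0.22.

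Complex I had 7 of 35 entering members (20%) higher and 0 lower in epiblast-like over trophectoderm-like cells, against 24.6% and 16.7% of all nuclear genes. NDUFB1, an accessory subunit of the membrane arm, had 90.8 to 333 RPM in epiblast-like cells (median 167.1), 29.1 to 326 in hypoblast-like cells (median 124.9) and 23.1 to 251.02 in trophectoderm-like cells (median 83.6), and all 50 epiblast-like cells were above the trophectoderm-like median. NDUFV2, an iron-sulfur core subunit of the matrix arm, was above it in 48 of 50 epiblast-like cells, with a pooled fold of 2.12. NDUFA1, an accessory subunit, had a log2 fold of 0.86. NDUFB4, the lowest of the 35, had -0.34.

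**Figure D2:**
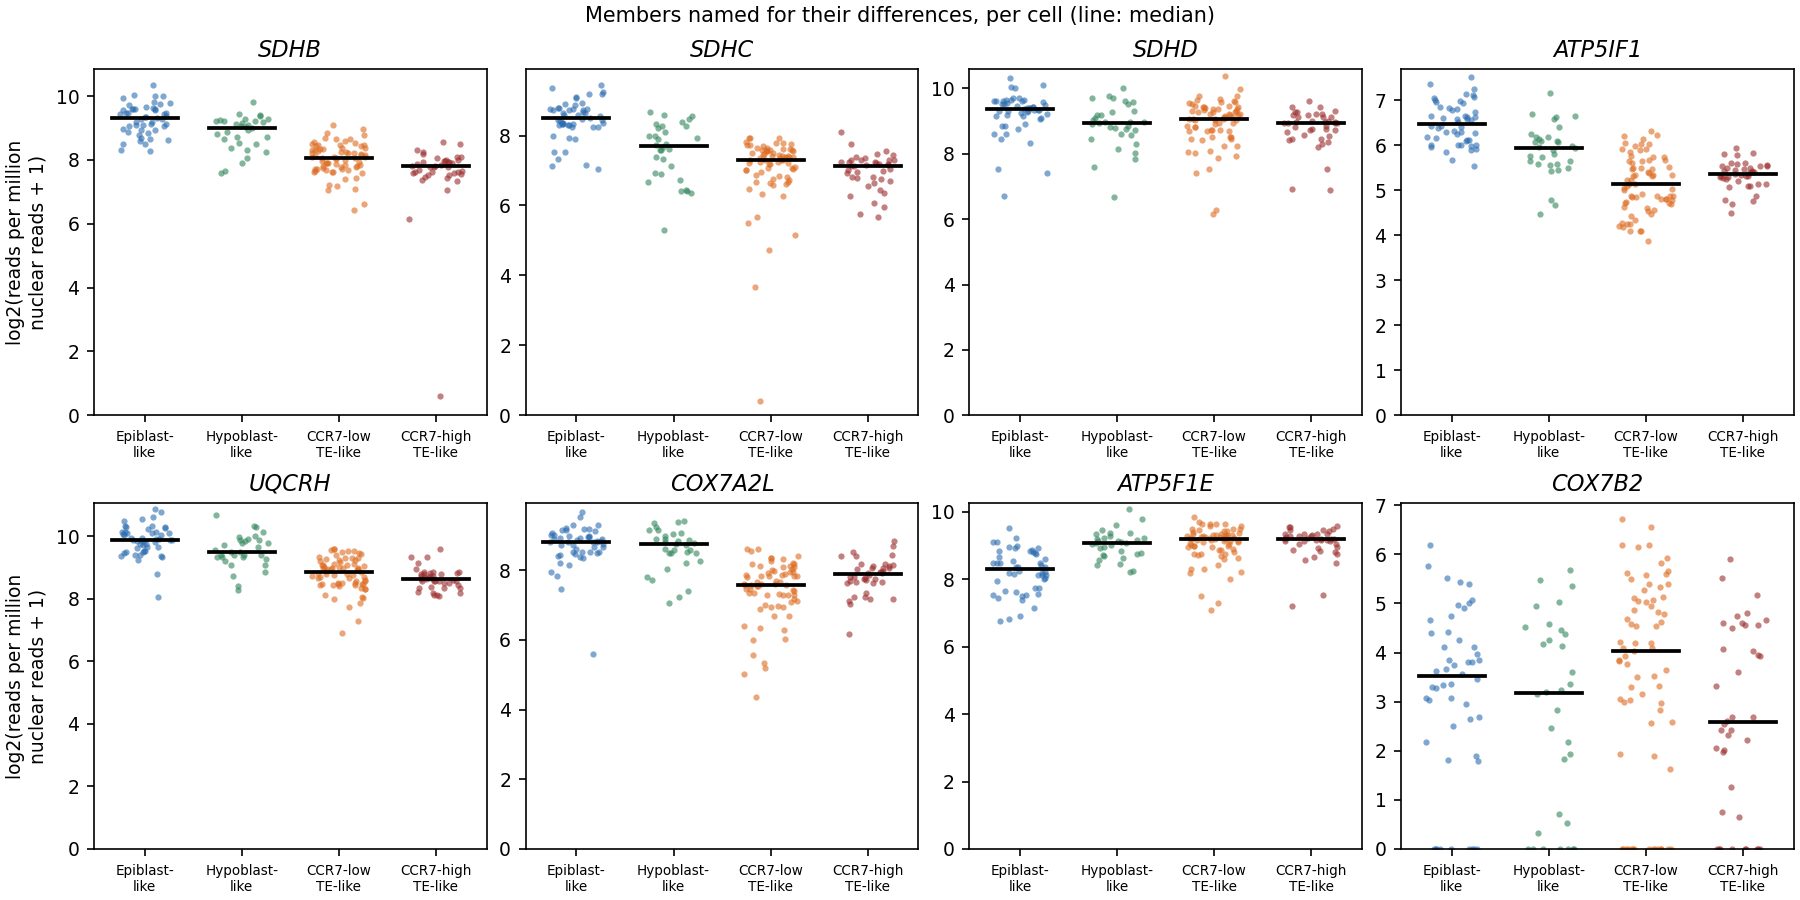
Each point is 1 cell and the vertical axis is log2 of RPM plus 1, for 8 members in epiblast-like, hypoblast-like, CCR7-low and CCR7-high trophectoderm-like (TE-like) cells, with the median as a line. SDHB, SDHC, ATP5IF1, UQCRH and COX7A2L are higher in epiblast-like than in trophectoderm-like cells, with COX7A2L in hypoblast-like cells close to epiblast-like cells, SDHD is within 1.5-fold in each comparison, ATP5F1E is lower in epiblast-like cells than in the other classes and COX7B2 includes cells without a read in every group.

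Between hypoblast-like and trophectoderm-like cells, 8 of 75 members (10.7%) were higher in hypoblast-like cells, against 18.2% of all nuclear genes, and 0 were lower, against 16.2%. The 8 were COX7A2L, SDHB, UQCRH, ATP5IF1, ATP5ME, SDHC, NDUFB1 and NDUFA6, an accessory subunit of complex I, with log2 folds from 1.01 to 0.63. The median log2 fold of members was 0.20 against -0.01 for all nuclear genes. Many hypoblast-like cells also carried epiblast transcripts. The summed epiblast list had a median of 492 CPM (105.3 to 1973) in hypoblast-like cells, 106.1 CPM in trophectoderm-like cells and 2577 CPM in epiblast-like cells, and 5 of 11 epiblast markers reached 10 CPM in the hypoblast-like pool. With cells holding at least 3 markers of a second lineage at 10 CPM left out, 28 of 50 epiblast-like, 5 of 32 hypoblast-like, 58 of 71 CCR7-low and 30 of 40 CCR7-high trophectoderm-like cells remained, so every class held such cells. The median log2 fold was then 0.04 against -0.10 for all nuclear genes. Then 7 members (9.33%) were higher, against 18.9% of all nuclear genes, and 1 (1.33%) lower, against 24.5%. ATP5ME, SDHC, UQCRH, NDUFB1 and NDUFA6 were no longer among the higher members, whereas other members were.

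Between epiblast-like and hypoblast-like cells, 2 members (2.67%) were higher in epiblast-like cells, against 17.8% of all nuclear genes, and 1 (1.33%) was lower, against 10.4%. SDHC was higher, with a pooled ratio of 1.66 and 44 of 50 cells above the hypoblast-like median, as was ATP5IF1, at the limit with 1.5. ATP5F1E was lower, with a ratio of 0.63 and 46 of 50 cells below that median. The median log2 fold was 0.09 both for members and for all nuclear genes. With the mixed cells left out, 15 members (20%) were higher, against 29.2% of all nuclear genes, and 2 (2.67%) lower, against 17.5%. The medians were then 0.26 for members and 0.17 for all nuclear genes, over the 28 epiblast-like and 5 hypoblast-like cells.

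Within the trophectoderm-like cells, 0 members were higher in CCR7-high than in CCR7-low cells, against 12.9% of all nuclear genes, and 3 (4.0%) were lower, against 12.8%. Only 13 of 75 members had a ratio above 1, against 52.7% of all nuclear genes, and the median log2 fold was -0.22 against 0.03. The 12 entering members of complex IV had the lowest median, at -0.34, and complex III the highest, at -0.14.

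NDUFB9, an accessory subunit of complex I, had 149.1 to 995 RPM in CCR7-low cells (median 393) and 65.2 to 574 in CCR7-high cells (median 265). It was below the CCR7-low median in 34 of 40 CCR7-high cells, with a pooled ratio of 0.591. NDUFC2, another accessory subunit of complex I, was also below it in 34 of 40 cells, with medians of 805 and 485 and a ratio of 0.657. COX7B2, a paralog of COX7B that is best known from testis, had a median of 15.3 (0 to 103.6) in CCR7-low cells and 4.97 (0 to 58.5) in CCR7-high cells, and 56 of 71 and 31 of 40 cells had a read. Its ratio of 0.478 was the lowest of the members that entered. Of the 13 members with a ratio above 1, NDUFS3, a core subunit of complex I named here after its values were seen, had the largest, at 1.27, with medians of 174.6 and 235.8 and 29 of 40 CCR7-high cells above the CCR7-low median. COX7A2L, taken up here after its values were seen, also had a ratio above 1, with medians of 190 and 235 and 32 of 40 CCR7-high cells above the CCR7-low median, at a ratio of 1.16.

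**Figure D3:**
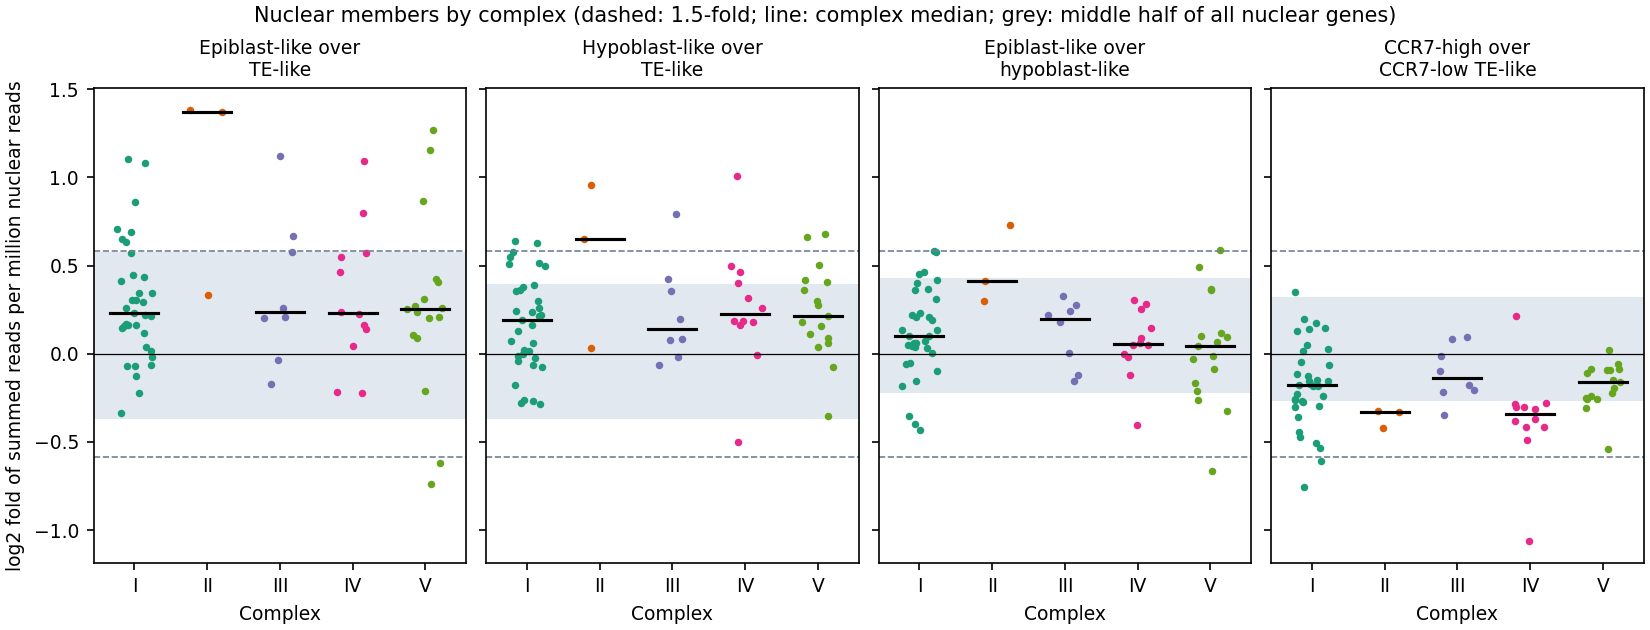
Each point is 1 nuclear member and the vertical axis is the log2 fold of pooled RPM, by complex in each of the 4 comparisons, with the complex median (black line), 1.5-fold in either direction (dashed) and the middle 50% of all nuclear genes (grey). Most members lie inside the grey band, complex II is at a median of 1.37 for epiblast-like over trophectoderm-like (TE-like) cells, and most points of the CCR7-high over CCR7-low panel are below 0.

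**Figure D4:**
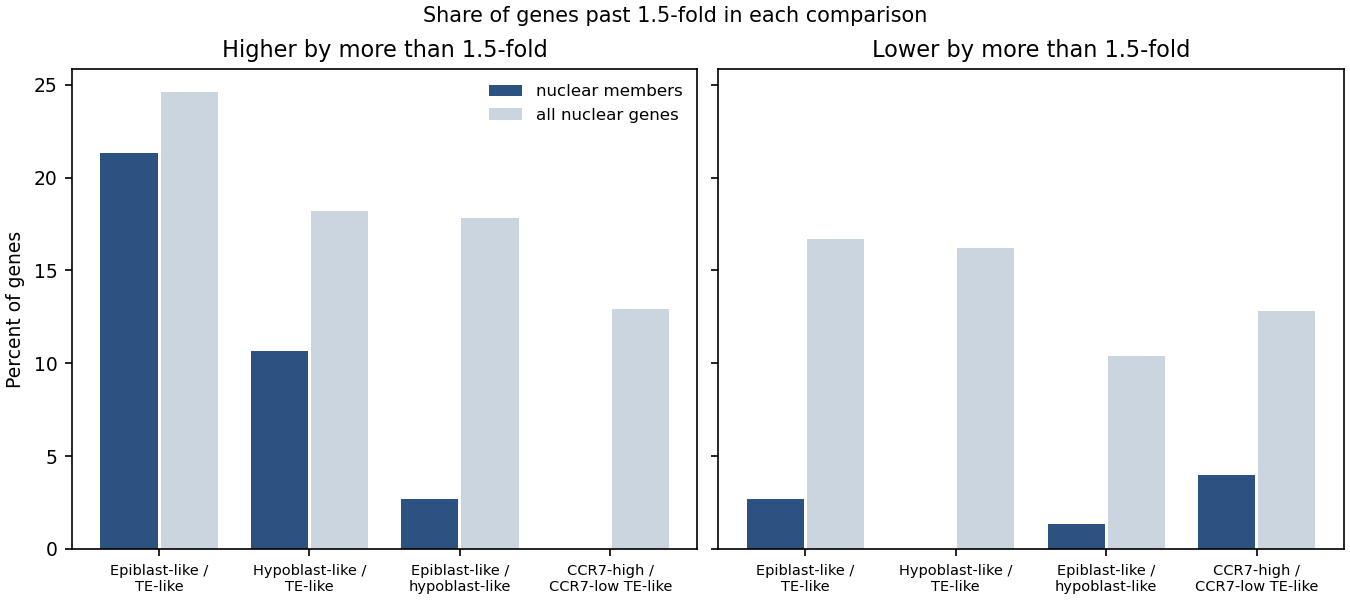
Bars give the percent of genes that differ by more than 1.5-fold, higher on the left and lower on the right, for the 75 nuclear members (dark) and all 7884 nuclear genes (light) in the 4 comparisons. Each dark bar is shorter than its light bar, and the closest pair is at 21.3% against 24.6%.

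Several subunits of complexes I and IV have a paralog that replaces the common form in certain tissues. In all classes the common forms COX4I1, COX6A1, COX6B1, COX7A2, COX7B, COX8A and NDUFA4 had reads in every cell. The paralogs differed from each other in the classes that held them. COX7A1, the form of heart and skeletal muscle, had reads in 43 of 50 epiblast-like cells (86%, 95% interval 73.3% to 94.2%), 15 of 32 hypoblast-like cells (46.9%, 29.1% to 65.3%) and 38 trophectoderm-like cells (34.2%, 25.5% to 43.8%). Its pooled level was 7.80, 1.06 and 1.12 RPM. After the same thinning the shares were 85.4%, 52% and 34%.

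COX6B2, known from testis, had reads in 29 of 50 epiblast-like cells (58%, 43.2% to 71.8%), 9 of 32 hypoblast-like cells (28.1%, 13.7% to 46.7%) and 4 trophectoderm-like cells (3.60%, 0.990% to 8.97%), with pooled levels of 2.46, 1.12 and 0.058. COX8C, likewise known from testis, had its highest share and level in trophectoderm-like cells. It had reads in 49 trophectoderm-like cells (44.1%, 34.7% to 53.9%), 8 of 50 epiblast-like cells (16%, 7.17% to 29.1%) and 6 of 32 hypoblast-like cells (18.8%, 7.21% to 36.4%), and the thinned shares were 47%, 16.7% and 20%. Its pooled levels in the same order were 2.62, 0.667 and 0.177 RPM. The shares of epiblast-like and hypoblast-like cells had overlapping intervals. The pooled level of epiblast-like cells was 3.77-fold that of hypoblast-like cells (2.40 to 6.22, counting error only). It rests on 140 reads in 8 cells and 22 reads in 6 cells, with 24.3% and 22.7% of them from 1 cell. No difference between these 2 classes is read from it.

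COX7B2 had reads in 82%, 78.1% and 78.4% of epiblast-like, hypoblast-like and trophectoderm-like cells. COX4I2, a form of lung, had reads in 7 trophectoderm-like cells (6.31%) and in 0 of 50 and 0 of 32 of the others, which at a limit of 3 cells allows shares of cells with a counted read of up to 6.0% and 9.38%. Its symbol has 2 identifiers, and reads left uncounted for that reason are outside this limit. COX6A2, the muscle form of COX6A1, had no read in any class, and its count of 0 in trophectoderm-like cells allows, at the same limit, a share of cells with a counted read of up to 2.7%. NDUFA4L2, an analog of NDUFA4 induced by low oxygen, had reads in 4, 1 and 5 cells.

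Members below the level limit were mostly those whose symbol has more than 1 identifier. Of 11 nuclear members with 2 identifiers, 3 entered, against 72 of 77 with 1 identifier. Those that did not were ATP5PO, COX4I2, COX6B2, NDUFA13, NDUFA3, NDUFB11, SDHA and UQCRQ, and the 5 others below the limit were COX6A2, COX7A1, COX8C, NDUFA4L2 and UQCRHL. Over all nuclear and mitochondrial genes, 12.4% of symbols with several identifiers and 43.6% of symbols with 1 reached the limit. Reads that fit several places are not counted by the counter used, so the levels of duplicated members are uncertain, and the part of this in their low level was not tested.

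The 13 mitochondrially encoded members took 2.39% of gene reads in epiblast-like cells, 3.09% in hypoblast-like cells and 2.89% in trophectoderm-like cells. Single cells ran from 0.007% to 9.09% in epiblast-like cells with a median of 2.19%, from 0.464% to 14.2% in hypoblast-like cells with a median of 2.13%, and from 0.173% to 20.1% in trophectoderm-like cells with a median of 2.23%. The medians lay closer to each other than the pooled shares and in another order, so no order of the 3 classes can be read from these values. Cells above 10% numbered 0, 3 and 6, and cells below 1% numbered 7, 1 and 3. CCR7-low and CCR7-high cells had medians of 2.48% and 1.59%, and 8 of 40 CCR7-high cells were above the CCR7-low median.

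None of the 13 genes differed by more than 1.5-fold between the 3 classes except MT-ND5, a core subunit of complex I, which was lower in epiblast-like than in hypoblast-like cells, with a ratio of 0.663. This is 1 of 13 (7.69%), near the 10.4% of all nuclear genes lower in that comparison. The ratios of epiblast-like over trophectoderm-like cells ran from 0.760 for MT-ND6 to 1.14 for MT-ND2, both subunits of complex I. In CCR7-high over CCR7-low cells all 13 ratios were below 1, from 0.656 for MT-ND2 to 0.878 for MT-ND5, and only MT-ND2 was past 1.5-fold, which is 7.69% against the 12.8% of all nuclear genes that were lower.

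Reads were unevenly spread over the mitochondrial genes. The shares that follow are of reads as counted, with no correction for gene length, and give no order of levels. MT-ND4 and MT-ND1 of complex I held 75.1% of the reads of the 13 genes, at pooled levels of 10634 and 6720 CPM in epiblast-like cells. MT-CO1 of complex IV held 10.2%, MT-ND4L with 6.09%, MT-ND2 with 3.41%, MT-CYB of complex III with 2.75%, MT-ND3 with 1.75% and MT-ND5 with 0.606%. MT-CO2 and MT-CO3 of complex IV and MT-ATP6 and MT-ATP8 of complex V together held 0.073%, and MT-ND6 held 0.008%. These genes lie on the same long transcripts as the well-counted ones, apart from MT-ND6 on the other strand. Reads of genes that overlap or have nuclear copies can be left uncounted, and the part of this in the uneven counts was not tested.

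**Figure D5:**
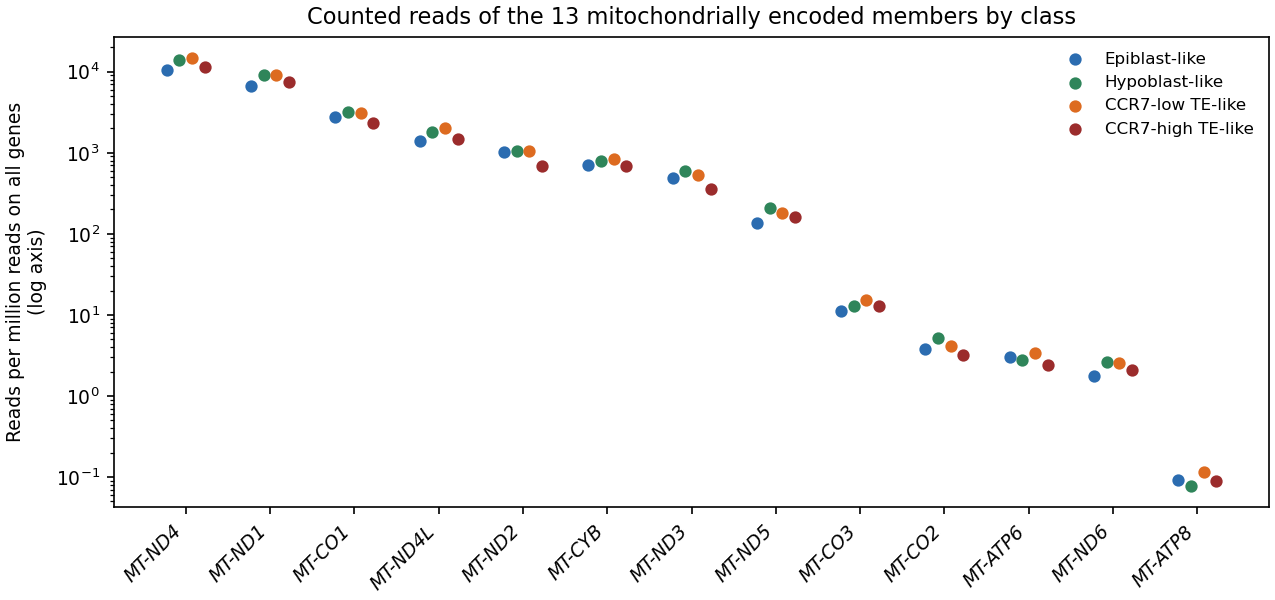
Points give the pooled CPM (log axis) of the 13 mitochondrially encoded members in epiblast-like, hypoblast-like, CCR7-low and CCR7-high trophectoderm-like (TE-like) cells, in order of their reads. On this wide log axis the classes lie close together for each gene. All 13 genes are nevertheless lower in CCR7-high than in CCR7-low cells, at ratios of 0.656 to 0.878. MT-ND4 is lowest in epiblast-like cells at 10634 CPM, and MT-ATP8 is highest in CCR7-low cells at 0.114 CPM. Heights are not corrected for gene length and are to be read within a gene.

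As a description over cells, Spearman's rho between the summed nuclear level and the mitochondrial share was 0.195 over 50 epiblast-like, -0.111 over 32 hypoblast-like and -0.062 over the trophectoderm-like cells. Without the 2 cells farthest from the median mitochondrial share it was 0.341, 0.079 and -0.012, so the value in hypoblast-like cells changed sign. Pearson's r was -0.080, -0.315 and -0.370, and 0.320, 0.119 and -0.278 without these cells. All 6 trophectoderm-like cells above 10% mitochondrial reads were below the class median of the nuclear level, as were 2 of the 3 such hypoblast-like cells. Between the mitochondrial share and the number of detected genes rho was -0.565 in hypoblast-like, -0.477 in trophectoderm-like and -0.136 in epiblast-like cells. Both measures of a cell come from the same library. At the edge of the gene limit, the 3 cells just inside had 8199, 8348 and 8385 detected genes and mitochondrial shares of 5.52%, 2.62% and 9.86%, and the 3 just outside had 7620, 7922 and 7984 genes and shares of 9.56%, 7.40% and 28.8%.

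Other genes of the pathway were described from a list of 73 assembly factors, carriers and regulators, of which 71 had a symbol in the table and 61 entered. In epiblast-like over trophectoderm-like cells 15 of 61 (24.6%) were higher and 0 lower, against 24.6% and 16.7% of all nuclear genes. UCP2, a carrier of the uncoupling protein family, had a median of 28.3 RPM (0 to 180) in epiblast-like cells, 8.72 (0 to 110) in hypoblast-like cells and 0 (0 to 56.3) in trophectoderm-like cells. Its pooled levels were 48.3, 15.8 and 3.61 RPM, and it passed the level limit only through the classes where it was high. SLC25A4, an exchanger of ADP and ATP across the inner membrane, had medians of 112.99, 45.4 and 15.1. SLC25A5, a second exchanger, had ratios over trophectoderm-like cells of 1.49 in epiblast-like cells, just inside the limit, and 1.71 in hypoblast-like cells.

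CYCS, cytochrome c, which carries electrons from complex III to complex IV, had 203.8 to 1597 RPM in epiblast-like cells (median 870), 293 to 1851 in hypoblast-like cells (median 1129) and 48.2 to 1074 in trophectoderm-like cells (median 516). Its pooled folds over trophectoderm-like cells were 1.82 and 2.25. Of the assembly factors that entered, 10 of 38 (26.3%) were higher in epiblast-like than in trophectoderm-like cells, near the 24.6% of all nuclear genes. The largest folds were those of TMEM70 of complex V with a fold of 2.98 and NDUFAF2 of complex I with 2.48. SCO2, a copper chaperone of complex IV, had 2.07, NDUFAF3 had 1.95, ECSIT 1.78 and NDUFAF5 1.77. POLRMT, the mitochondrial RNA polymerase, had 2.00. None of the 6 entering regulators and neither of the antioxidant enzymes was past 1.5-fold in any comparison. The 2 regulators below the level limit, named here after their values were seen, are coactivators of mitochondrial genes. PPARGC1A was pooled at 7.04 RPM in epiblast-like cells (0 to 48.9, median 1.38), 0.626 in hypoblast-like cells and 0.321 in trophectoderm-like cells, with reads in 27, 3 and 13 cells. PPARGC1B was at 7.95, 4.04 and 4.06.

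In hypoblast-like over trophectoderm-like cells, 7 of the 61 (11.5%) were higher and 5 (8.20%) lower, against 18.2% and 16.2% of all nuclear genes. Besides the carriers and CYCS, the higher genes were NDUFAF2, NDUFAF5 and SCO2. The lower genes were the assembly factors NDUFAF7, SCO1, COA7 and UQCC3 and the mitochondrial transcription factor TFB2M, with log2 folds from -0.80 to -0.64. In epiblast-like over hypoblast-like cells 10 (16.4%) were higher and 0 lower, against 17.8% and 10.4%. They were UCP2 with a ratio of 3.06, SLC25A4 with 2.61, POLG2, a subunit of the mitochondrial DNA polymerase, with 2.17, TMEM70 with 2.06, and 6 other assembly factors, TIMMDC1, NDUFAF7, SDHAF3, TTC19, ATPAF2 and NDUFAF3, with 1.52 to 1.62. In CCR7-high over CCR7-low cells 1 of the 61 (1.64%) was higher and 4 (6.56%) lower, against 12.9% and 12.8%. UCP2 was higher, at 1.91 on low levels of 5.08 and 2.66, both below the level limit. SLC25A4, UQCC3, COX11 and POLRMT were lower, with ratios of 0.513, 0.559, 0.589 and 0.598.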

How the data were processed

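Counts of reads per gene were deposited by the authors for single cells without normalization, and column names were matched to the cell numbers of the labels. Per the study's methods, reads were trimmed, aligned to the chimpanzee genome and counted with STAR, which counts reads that map to 1 place. The submitters' processing notes name Trim Galore 0.6.6, STAR 2.7.7a and the human build GRCh38, while the identifiers are those of chimpanzee genes, and this was not resolved. Symbols came from a table that names 18783 of the 33729 identifiers, and identifiers of 1 symbol were summed.

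Cells with fewer than 4000 reads or 8000 detected genes were left out. Scanpy 1.11.5 normalized and log-transformed the counts of 15463 genes read in at least 20 cells, without the members, and Leiden clustering (leidenalg 0.10.2) used 50 components, 30 neighbours, a resolution of 1 and seed 0. Clusters were named by the highest mean standardized marker list, with at least 3 markers at 1 CPM. Doublets were not called. Members, marker lists and pathway lists were chosen with earlier results of these data known. The text names members and pathway genes past 1.5-fold, up to 10 per direction and comparison, the extremes of each complex for epiblast-like over trophectoderm-like cells, the mitochondrial members, paralog pairs, the complex II genes and CYC1. Genes named beyond this rule are marked.

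Levels (RPM) are pooled reads per 1000000 reads outside the 13 mitochondrial mRNA genes, with Poisson and Clopper-Pearson intervals from scipy 1.17.1. Python 3.11.15, numpy 2.4.6, pandas 2.3.3 and matplotlib 3.10.9 were used. With 1 sample, no test was made. Simulated counts with known folds served as a check of the fold computation. No sequence or promoter table was used here. Alternatives covered scale, summary over cells, level and cell filters, fold, clustering, depth and mixed cells.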

Additional observations from a re-analysis of the deposited data

Results flagged for a closer look

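The 24 cells left out for their low number of detected genes entered no comparison, and their medians differed from those of the 3 classes in both measures. Their median share of reads on mitochondrially encoded members was 16.3%, from 1.07% to 62.3%, against medians of 2.13% to 2.23% in the 3 classes. Their median summed level of nuclear members was 21036 RPM (reads per 1000000 nuclear reads), below the class medians of 30375 to 37975. It ran from 4370 to 54764, so the highest of these cells was above every cell kept, and both ranges overlapped those of the classes. They had a median of 1660767 reads and 6894 detected genes, and the part of cell damage, depth and cell type in these values was not tested.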

How the results depend on the processing

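In epiblast-like over hypoblast-like cells the median log2 fold of members was 0.00018 with median-ratio scaling, which is no direction. It was below the median of all nuclear genes after thinning (0.04 against 0.10). At a level of at least 100 it was above that median (0.09 against -0.01). In the other comparisons the median log2 folds of members kept their direction in all alternatives run. They ranged from 0.20 to 0.35 for epiblast-like over trophectoderm-like cells, from 0.04 to 0.25 for hypoblast-like over trophectoderm-like cells and from -0.25 to -0.12 for CCR7-high over CCR7-low cells, while epiblast-like over hypoblast-like cells had no lower than 0.00. The log2 fold of the summed level, in the same order, ranged from 0.27 to 0.40, from 0.16 to 0.27 and from -0.27 to -0.15, and from 0.0085 with median-ratio scaling to 0.24 without mixed cells for epiblast-like over hypoblast-like cells. The count of members higher in epiblast-like than in hypoblast-like cells was 4 when scaled to all reads (5.33%, against 18.2% of all nuclear genes) and 15 with mixed cells left out (20% against 29.2%). It was 1, against 8.97% to 19.8% of all genes, with median-ratio scaling, with the median of cells, after thinning, without cells above 10% mitochondrial reads, and at a level of at least 100. Members lower there numbered 2 without mixed cells (2.67% against 17.5%). In hypoblast-like over trophectoderm-like cells 1 member (1.33%) was lower with all cells, against 16.4% of all nuclear genes, and 1 without mixed cells, against 24.5%. At a level of at least 3, 1 member (1.30%) was higher in CCR7-high cells, against 15.9%.

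With a limit of a 25% difference, 29 members were higher and 3 lower in epiblast-like over trophectoderm-like (all nuclear genes 35.4% and 27.3%), 26 and 2 in hypoblast-like over trophectoderm-like (28.1% and 27.1%), 15 and 6 in epiblast-like over hypoblast-like (31.3% and 19.2%), and 1 and 18 in CCR7-high over CCR7-low cells (24.5% and 21.9%). With 2-fold these were 8 and 0 (14.7% and 9.04%), 1 and 0 (10.8% and 8.16%), 0 and 0 (8.40% and 5.37%), and 0 and 1 (5.64% and 6.01%).

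The mitochondrial share of epiblast-, hypoblast- and trophectoderm-like cells was 2.61%, 3.64% and 3.18% as the mean of cells, 2.19%, 2.13% and 2.23% as their median, 2.63%, 3.18% and 3.21% at 7000 genes, 2.63%, 5.52% and 3.25% with all cells, 2.48%, 2.99% and 2.75% after thinning and 2.34%, 2.34% and 2.95% without mixed cells. Hypoblast- and trophectoderm-like cells had 2.72% and 2.83% at 9000 genes and 2.58% and 2.38% without cells above 10%. Of the folds of single members, 480 values stayed past 1.5-fold and 19 did not, 7 of them ATP5IF1 in epiblast-like over hypoblast-like cells. Limits added after seeing the data were the level of 100, the cells above 10%, identifiers kept apart and the removal of duplicated symbols. The cause of these shifts was not tested. No paired analysis was possible because all cells are 1 sample, and no replicate could be left out.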
